A study of Mus musculus with 41 samples.

Results

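The lysosome genes described here are 49 mouse genes, chosen by symbol for their place in the lysosome, by a rule that uses no measured value, although earlier results of these data were known. They are 11 proteases, 12 glycosidases, 6 sulfatases and acetyltransferases, 4 lipid hydrolases, 4 activator, carrier and growth factor proteins, 9 membrane proteins and 3 subunits of the proton pump. All 49 had ribosome footprint values, among 22438 genes that had any, and all 49 had RNA values, among 55385 genes. Their RNA was resolved into 267 of 142552 transcripts.

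Ribosome profiling sequences the pieces of mRNA that ribosomes protect from nuclease. The footprints on a coding sequence thus count the ribosomes on it, those that have stopped included. Footprints were sequenced from embryos, cerebella and mouse embryonic fibroblasts (MEFs), and RNA was sequenced from MEFs. The question was how translation and mRNA levels change when ribosome rescue or mRNA surveillance is lost. HBS1L and PELO together take apart ribosomes that have stopped on an mRNA, and UPF2 is a core factor of nonsense-mediated decay.

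Embryos were taken at E8.5 from C57BL/6NJ mice, with 3 replicates of Hbs1l-/- and 3 of wild-type embryos, each a pool of 5 embryos. Cerebella came from C57BL/6J mice at P14, with 3 Hbs1l conditional knockouts (Tg(Atoh1-Cre); Hbs1l cKO, carrying 1 floxed and 1 null allele) and 3 controls with the same transgene and wild-type Hbs1l. The Atoh1 promoter drives Cre in granule cells and their precursors only, so the other cells of these cerebella kept a copy of Hbs1l. MEFs were primary C57BL/6 cells from individual embryos that carried a tamoxifen-inducible Cre (TgCAG-Cre ER). All MEFs were treated with 4-hydroxytamoxifen, the controls included. There were 3 footprint libraries each of Hbs1l-/-, Pelo-/- and Upf2-/- cells, with 3 control libraries in the pool of each genotype. For RNA there were 3 control, 3 Hbs1l-/-, 2 Pelo-/- and 3 Upf2-/- libraries, since the authors left out a further Pelo-/- replicate. Cerebella and MEFs, controls included, also carried the C57BL/6J allele of n-Tr20 in both copies, which lowers the level of this arginine tRNA.

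Lysosomes are acidic organelles in which hydrolases break down proteins, glycans, lipids and nucleic acids delivered by endocytosis and autophagy. Most of the hydrolases are made on ribosomes at the endoplasmic reticulum and are sorted in the Golgi, and a proton pump, the V-ATPase, keeps the lumen acidic. Many lysosome genes are switched on by the transcription factors TFEB, TFE3 and MITF, which bind E-box sequences with the core CACGTG near the start of transcription, and which mTORC1 holds in the cytoplasm when nutrients are plentiful.

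Because many lysosome genes share this E-box, the promoters of the members were searched for it. RefSeq promoters (GRCm38.p6, 250 bases before to 50 after the start) were found for 42 of the 49 members. The hexamer CACGTG, which reads the same on both strands, stood in the promoters of 14 of these 42 genes (33.3%), against 8.09% of 27025 genes with a promoter in the same table. The longer form TCACGTGA, which contains the hexamer and also reads the same on both strands, stood in 6 (14.3%) against 1.12%. The 27025 genes include genes with too little RNA in MEFs to be tested. Of genes with a promoter that were tested in Pelo-/- mRNA, 1233 held CACGTG and 9528 did not. The printed promoters are those of Lamp1 (chr8:13158911-13159210, plus strand), Mcoln1 (chr8:3500269-3500568, plus strand), Ctsd (chr7:142387778-142388077, minus strand) and Gaa (chr11:119267713-119268012, plus strand). They were taken from the members that hold the hexamer and whose mRNA and footprints moved in opposite directions in Pelo-/- MEFs. Ctsa, with TCACGTGA at 2 places, and Arsa, with 1 hexamer, met both conditions too and are not printed, and no further rule separated them from the 4 shown. Capitals mark CACGTG or TCACGTGA.

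Lamp1: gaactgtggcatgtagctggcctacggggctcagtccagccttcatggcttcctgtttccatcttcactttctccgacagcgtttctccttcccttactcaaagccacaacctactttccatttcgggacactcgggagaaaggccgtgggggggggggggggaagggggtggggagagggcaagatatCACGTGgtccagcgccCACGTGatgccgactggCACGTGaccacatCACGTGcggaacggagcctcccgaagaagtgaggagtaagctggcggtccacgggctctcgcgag

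Mcoln1: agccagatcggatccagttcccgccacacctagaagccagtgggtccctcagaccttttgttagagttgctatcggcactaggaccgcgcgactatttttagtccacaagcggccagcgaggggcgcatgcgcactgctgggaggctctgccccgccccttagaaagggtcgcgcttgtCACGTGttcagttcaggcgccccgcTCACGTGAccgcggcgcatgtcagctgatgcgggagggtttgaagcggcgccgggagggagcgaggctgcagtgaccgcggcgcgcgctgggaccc

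Ctsd: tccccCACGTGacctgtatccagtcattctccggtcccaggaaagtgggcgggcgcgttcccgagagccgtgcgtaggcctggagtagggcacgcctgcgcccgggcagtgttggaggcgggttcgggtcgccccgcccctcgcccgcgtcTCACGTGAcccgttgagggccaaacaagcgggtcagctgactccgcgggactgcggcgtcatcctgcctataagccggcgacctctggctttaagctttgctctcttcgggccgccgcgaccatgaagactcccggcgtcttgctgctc

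Gaa: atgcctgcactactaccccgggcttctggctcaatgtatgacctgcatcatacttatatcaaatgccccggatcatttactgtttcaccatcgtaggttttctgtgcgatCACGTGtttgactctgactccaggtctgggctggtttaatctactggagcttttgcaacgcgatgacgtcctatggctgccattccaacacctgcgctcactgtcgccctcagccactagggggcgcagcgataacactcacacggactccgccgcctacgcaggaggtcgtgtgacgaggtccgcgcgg

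Lamp1, a heavily glycosylated protein of the lysosomal membrane, held 4 hexamers, the first at -61 from the start. Mcoln1, a calcium channel of the same membrane, held 2, the first at -71. Ctsd, the aspartic protease cathepsin D, held 2, the first at -245, and Gaa, the glucosidase that degrades glycogen, held 1 at -140. A match is a description of the letters and not of binding.

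The labels were first read against the targeted genes. Hbs1l footprints, in counts scaled to library size with TMM factors (CPM), were 2.96, 2.76 and 9.03 in Hbs1l-/- embryos against 59.8, 52.3 and 50.4 in wild-type embryos. They were 14.9, 15.7 and 12.8 CPM in Hbs1l cKO cerebella against 37.8, 40.0 and 44.7, and 2.58, 1.67 and 1.51 in Hbs1l-/- MEFs against 35.3, 39.5 and 32.6. Pelo footprints were 2.81, 2.98 and 2.00 CPM in Pelo-/- MEFs against 34.7, 38.4 and 31.8, and Pelo mRNA was 0.55 and 0.0865 CPM against 23.9, 23.8 and 24.9. Upf2 went against its label. Its footprints were 115, 113 and 119 CPM in the libraries labelled Upf2-/- against 54.9, 49.1 and 58.3 in controls, and its mRNA was 62.9, 43.0 and 30.0 CPM against 15.7, 21.4 and 16.7. Counts per gene cannot show whether an exon is missing, and of 2945 transcripts annotated as targets of nonsense-mediated decay 447 were higher and 3 lower in these cells, so they are called cells labelled Upf2-/- throughout.

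Totals per library ran from 2634480 to 7298812 footprints in embryos, from 10919139 to 22591768 in cerebella and from 5782990 to 25607974 in MEFs, and from 22713643 to 86425762 estimated RNA counts. The 10 fibroblast markers (Col1a1, Col1a2 and the like) summed to between 34491 and 44397 CPM of MEF footprints, and 12 macrophage and microglia markers to between 139 and 746 CPM. Y-linked genes exceeded 10 CPM in 0 of 3 Hbs1l-/-, 2 of 3 Pelo-/- and 3 of 3 labelled Upf2-/- footprint libraries of MEFs, and in 1 of 3 controls. Same-numbered control libraries of the 3 pools differed by a chi-square of only 1.11 to 1.19 per gene, against 4.03 to 12.4 for other pairs, so the 3 MEF footprint comparisons in effect share their control cells. The 3 RNA comparisons use the same 3 control libraries. Values of the mutants are therefore given side by side, and no overlap between them is counted.

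Per length, the members covered a wide range of levels in control cells. In control MEFs the highest mRNA levels, in TPM, a share of the library corrected for transcript length, were those of Cd63, a tetraspanin of late endosomes (716 ± 36, SD, n = 3), Ctsd (397 ± 22.6) and Lamp1 (298 ± 30.6). Cd63 and Ctsd did not overlap in any library, nor did Ctsd and Lamp1. The lowest mRNA level was that of Ctso, a cysteine cathepsin, at 0.719 ± 0.152 TPM. Footprints in the controls of the Hbs1l pool, in CPM per kilobase of coding sequence, were highest for Lamp1 (983 ± 31.2) and Laptm4a, a small transporter-like membrane protein (979 ± 17.7), which did not differ beyond their spread. They were lowest for Ctso (4.52 ± 0.246).

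The order differed in the tissues. In wild-type embryos the highest footprint level per kilobase was that of Ctsl, cathepsin L (1483 ± 217, n = 3), followed by Ctsb, cathepsin B (658 ± 84.9). In control cerebella Psap, the precursor of the saposins that present sphingolipids to their hydrolases, led with 1841 ± 28.1, followed by Ctsb (1040 ± 58.8). Ctsk and Ctss, cathepsins best known from osteoclasts and from macrophages, were lowest in wild-type embryos (0.601 ± 0.379 and 1.46 ± 2.11) and had too few footprints there to be tested. The 49 genes together took 0.753% ± 0.0556 of all footprints in wild-type embryos, 1.20% ± 0.101 in control cerebella and 1.08% ± 0.0418 in the control MEFs of the Hbs1l pool (SD, n = 3).

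In MEFs, lysosome genes had fewer footprints in all 3 mutants. With edgeR's quasi-likelihood test and Benjamini-Hochberg adjustment over all genes tested, 29 of the 49 members fell and 3 rose in Hbs1l-/- cells at an adjusted p of at most 0.05, where 16.7% of all 11984 genes tested fell and 17.4% rose. In Pelo-/- cells 26 fell and 5 rose, where 21.2% of 12486 genes fell and 22.9% rose. In cells labelled Upf2-/- 35 fell and 3 rose, where 21.1% of 12166 genes fell and 22.3% rose. The median log2 fold change of the members was -0.26, -0.33 and -0.42 in the 3 mutants, while the median of all genes lay between -0.01 and 0.00. Markers of cell types moved in the same footprint libraries. Of 10 markers of fibroblasts, the main cell type here, 9, 8 and 8 rose and 1, 1 and 2 fell in the 3 mutants. Of the macrophage and microglia markers 10 of 12, 12 of 12 and 4 of 11 tested rose. The part of both lists in the lower footprints of the members was not tested. In bulk samples, a change in the number of cells of a type and a change in RNA per cell cannot be told apart.

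The lower footprints were seen in every mutant library. The median member stood between -0.31 and -0.26 (log2 ratio to the control mean) in the 3 Hbs1l-/- libraries, between -0.34 and -0.26 in the 3 Pelo-/- libraries and between -0.39 and -0.37 in those labelled Upf2-/-. Control libraries ranged from -0.09 to 0.11, with no overlap. The members' share of all footprints was 0.872% ± 0.0176 in Hbs1l-/-, 0.879% ± 0.0346 in Pelo-/- and 0.815% ± 0.0135 in labelled Upf2-/- cells (SD, n = 3).

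**Figure D1:**
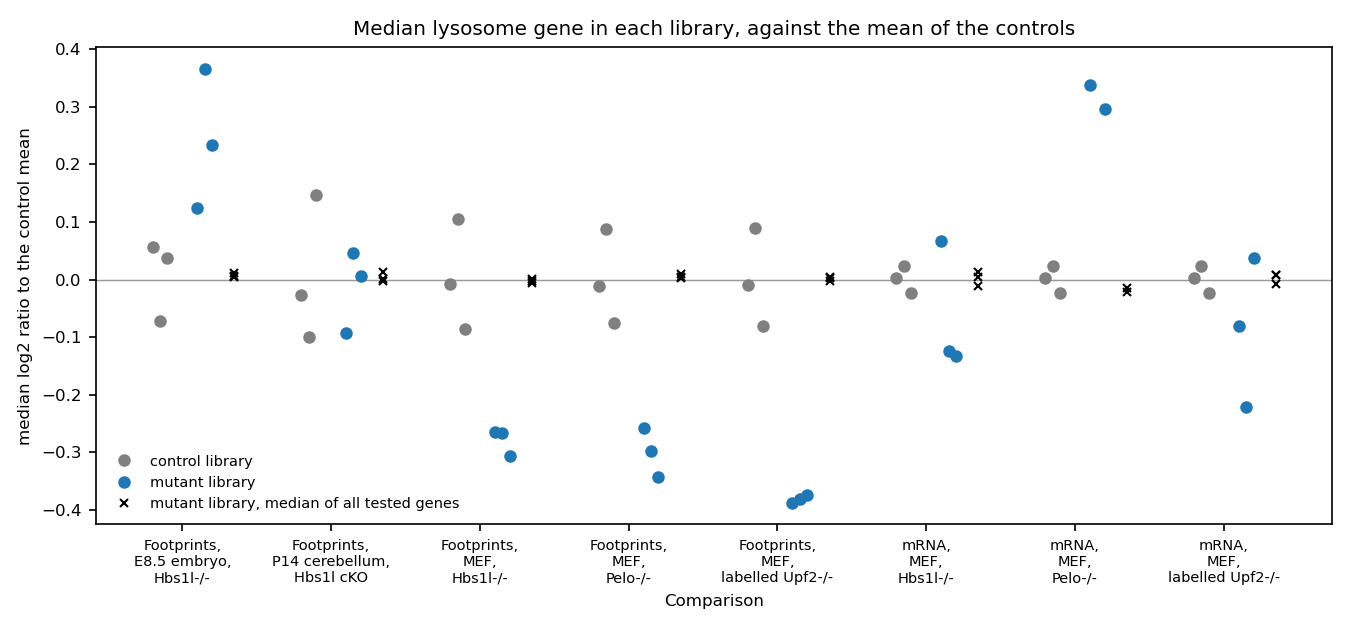
Median log2 ratio of the lysosome genes to the mean of the controls (vertical axis) in each library of 8 comparisons (horizontal axis), with control libraries in grey, mutant libraries in blue and the median of all tested genes in each mutant library as a cross. All 9 mutant footprint libraries of MEFs lie below their controls, while both Pelo-/- RNA libraries lie above theirs at 0.34 and 0.30.

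In mRNA, most of the calls were made in Pelo-/- cells. In Pelo-/- MEFs 28 of the 49 members rose and 0 fell, where 15.5% of 14705 genes rose and 16.6% fell, and the median of the members was 0.32. By edgeR, 35 members had an unadjusted p below 0.05, as did 6527 of all genes tested. In Hbs1l-/- MEFs 1 rose and 8 fell, where 12.7% of 15318 genes rose and 10.4% fell (median -0.09). In cells labelled Upf2-/- 3 rose and 5 fell, where 13.2% of 15983 genes rose and 6.76% fell (median -0.12).

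The members' share of RNA was 0.674% ± 0.0147 in Pelo-/- cells (n = 2), against 0.539% ± 0.0110 in controls, 0.504% ± 0.0218 in Hbs1l-/- and 0.534% ± 0.0357 in labelled Upf2-/- cells (SD, n = 3). Fibroblast markers summed to 13761 to 14264 CPM of mRNA in Pelo-/- libraries against 5621 to 9191 in controls, and 2 of 10 rose. In Hbs1l-/- libraries these markers summed to 7097 to 11773 CPM, and 6 of 10 rose and 1 fell. In labelled Upf2-/- libraries they summed to 6318 to 7737 CPM, and 0 rose or fell. Their part in the members' mRNA was not tested. The Pelo-/- count rests on 2 libraries. It was 11 without Pelo-/- replicate 1 (1743 of 15276 genes called) and 10 without replicate 2 (1506 of 15502), fits in which the lone library is assumed to vary like the others. It was 16 with limma on log2(TPM + 1), which called 1835 of 12496 genes, and 16 with the replicate block, which called 2955 of 14705. Without control replicate 2 the 9 calls in Hbs1l-/- cells became 3, where 1817 of 16389 genes were called. Without the same library the 8 calls in labelled Upf2-/- cells became 1, where 1800 of 16981 genes were called. Without Hbs1l-/- replicate 2 the Hbs1l-/- calls were 5 (2185 of 14897 genes). The labelled Upf2-/- calls were 5 without its replicate 2 (1995 of 15642 genes) and 5 without control replicate 1 (2387 of 16993). They were 3 without control replicate 3 (1858 of 15705).

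Setting mRNA beside footprints gene by gene, 13 members in Pelo-/- MEFs had mRNA that rose and footprints that fell, where 4.08% of the 12140 genes tested in both did so. These were the membrane proteins Lamp1, Npc1 and Mcoln1, the proteases Ctsa, Ctsd and Tpp1, the glycosidases Gaa, Galc, Hexa and Manba, the sulfatase Arsa, the sphingomyelinase Smpd1 and the V-ATPase subunit Atp6ap1. For 14 others mRNA rose and footprints did not pass the test, for 13 footprints fell and mRNA did not pass, and Arsb rose in both. No share of all genes is given for these classes, so their counts are no result about the members. No member moved this way in Hbs1l-/- cells (0 of 49, 0.0588% of 11904 genes) or in labelled Upf2-/- cells (0 of 49, 0.464% of 12057 genes). The count in Pelo-/- cells rested on both of its RNA libraries. It was 6 without Pelo-/- RNA replicate 1 (Atp6ap1, Gaa, Hexa, Lamp1, Npc1 and Tpp1, where 1.15% of 12199 genes did so) and 4 without replicate 2 (Atp6ap1, Gaa, Npc1 and Tpp1, 0.907% of 12238 genes). It was 8 with limma on log2(TPM + 1) in place of edgeR for mRNA (2.41% of 10661 genes) and 8 with the replicate block (2.56% of 12140 genes). In Hbs1l-/- and labelled Upf2-/- cells, 22 and 32 members fell in footprints while mRNA did not pass the test. Another 7 and 3 fell in both. No share of all genes is given for these classes either, so the counts are a description.

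**Figure D2:**
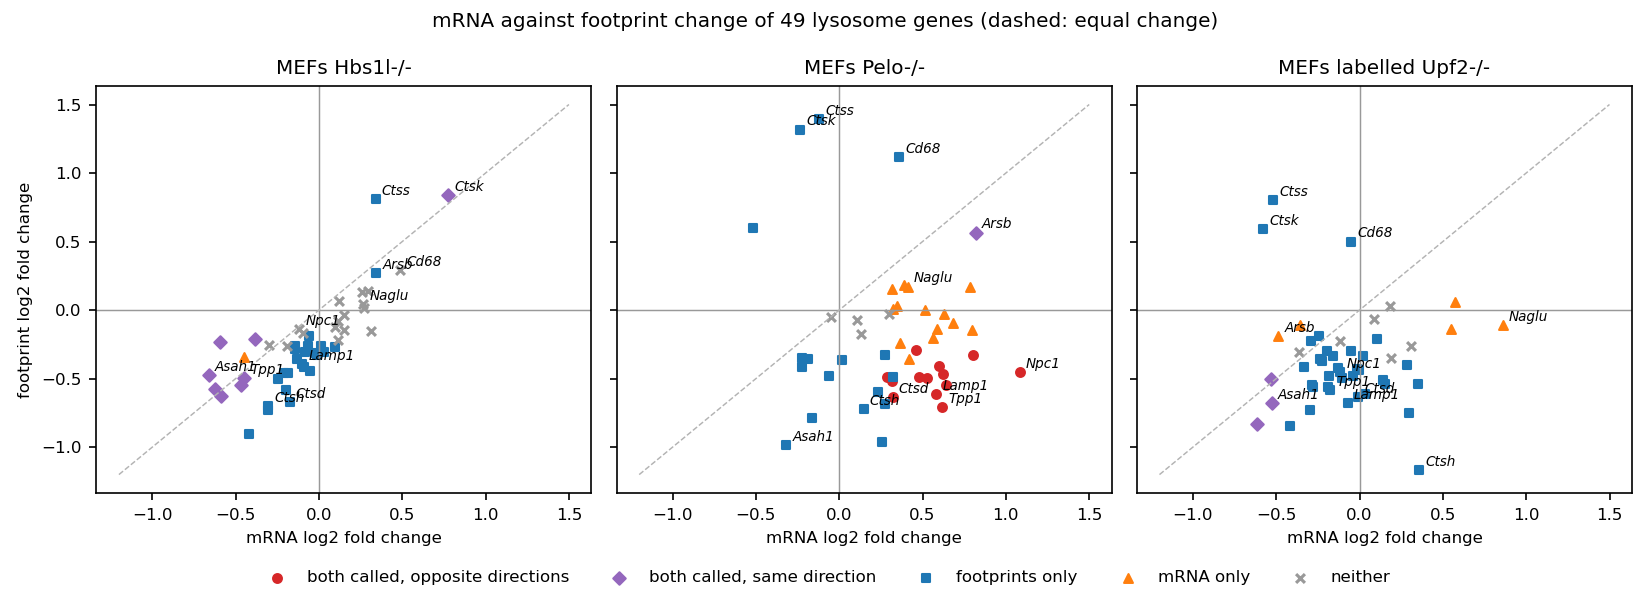
mRNA log2 fold change (horizontal axis) against footprint log2 fold change (vertical axis) of the 49 lysosome genes in Hbs1l-/-, Pelo-/- and labelled Upf2-/- MEFs, coloured by which measure passed an adjusted p of 0.05. The 13 red points in the Pelo-/- panel have higher mRNA and lower footprints, and no red point is present in the other panels.

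Translation efficiency (TE), the change in footprints beyond the change in mRNA, was computed from the same libraries and is no separate measurement. Footprint and RNA libraries did not all come from the same embryos. In labelled Upf2-/- cells Y-linked genes exceeded 10 CPM in 3 of 3 footprint libraries and in 2 of 3 RNA libraries. The part of differences between embryos in TE was not tested. TE of the members had a median of -0.63 in Pelo-/- cells, where 31 members fell and 4 rose by edgeR (20.4% of 12143 genes fell and 24.3% rose). In labelled Upf2-/- cells 14 fell and 2 rose (11.8% of 12054 genes fell and 8.47% rose), with a median of -0.33. With single replicates left out, 10 to 22 members fell and 1 to 3 rose in these cells. Calls were 12 without labelled Upf2-/- footprint replicate 2 (1637 of 12258 genes) and 24 without its RNA replicate 2 (2840 of 12047). The RNA of a gene includes its transcripts annotated for nonsense-mediated decay or with a retained intron. In these cells the 10 and 26 such transcripts of members had medians of 1.31 and 0.70, with 8 and 21 positive. The 88 coding ones had a median of -0.16, with 32 positive. The part of these transcripts in TE was not tested. In Hbs1l-/- cells 0 members passed the test (0.0168% of 11907 genes in each direction), with a median of -0.18. There, 10 members had an unadjusted p below 0.05 with edgeR, as did 2063 of all genes tested, and DESeq2 called 2 members and 340 of 18935 genes fitted. TE moved with GC content across genes in Hbs1l-/- cells (Spearman's rho -0.55 over 11872 genes, which share the libraries). Set against genes of like length and GC content, the members' mRNA median was -0.17 in Hbs1l-/-, 0.30 in Pelo-/- and -0.15 in labelled Upf2-/- cells, their footprint median was -0.25, -0.38 and -0.42, and their median TE was -0.07 in Hbs1l-/-, -0.62 in Pelo-/- and -0.22 in labelled Upf2-/- cells.

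**Figure D3:**
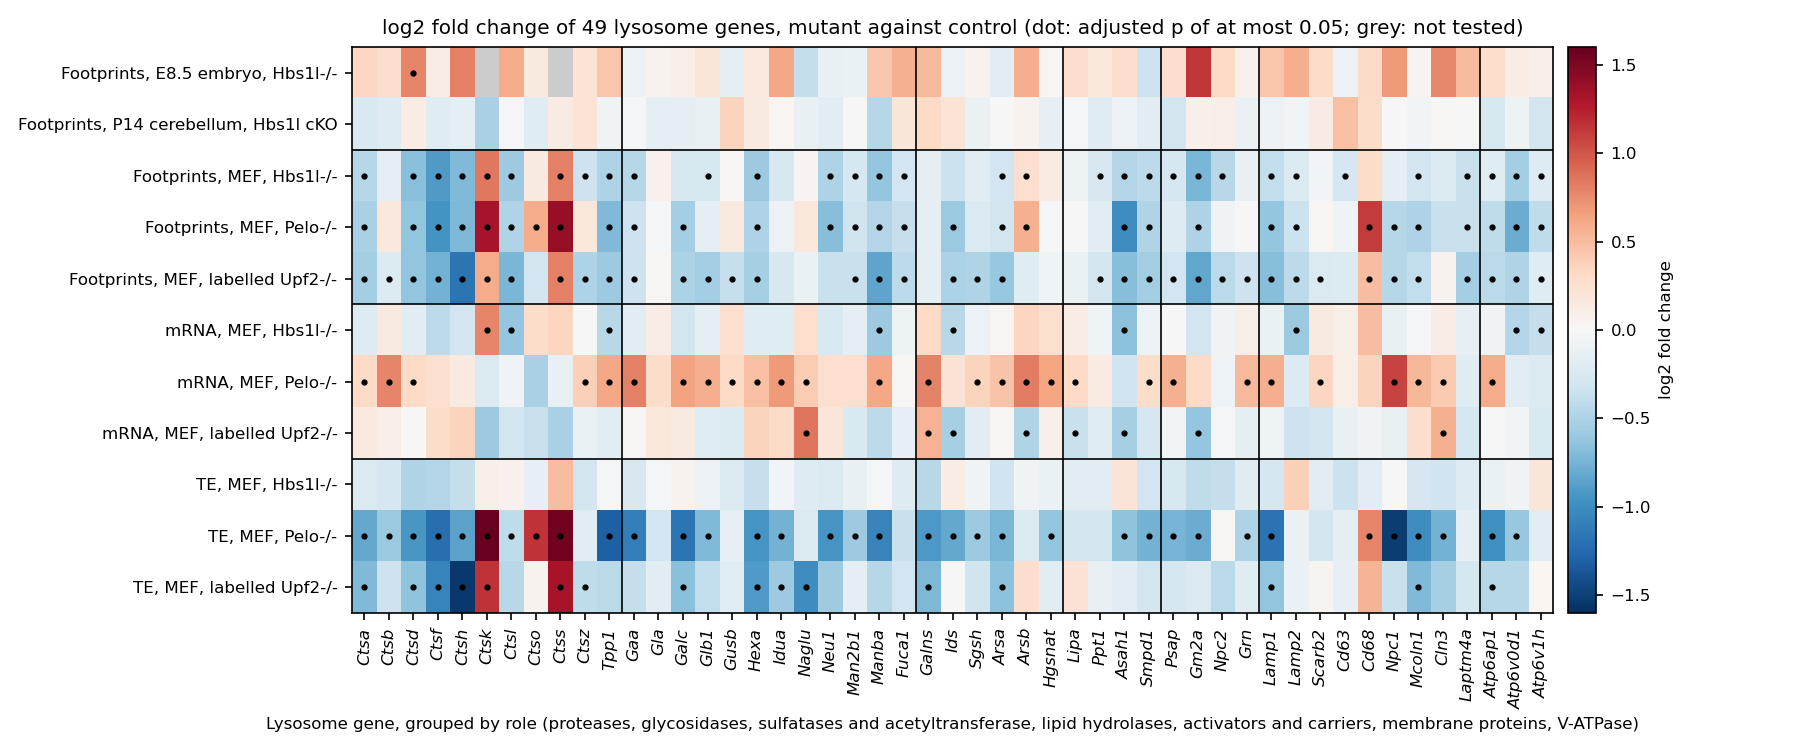
log2 fold change of the 49 lysosome genes (columns, grouped by role) in 11 comparisons (rows: footprints in embryo, cerebellum and MEFs, then mRNA and TE in MEFs), red for higher and blue for lower in the mutant, with a dot at an adjusted p of at most 0.05. The MEF footprint rows are mostly blue, and the Pelo-/- mRNA row is mostly red, with 28 dots.

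Among the proteases, 7, 6 and 8 of 11 fell and 2, 3 and 2 rose in footprints in Hbs1l-/-, Pelo-/- and labelled Upf2-/- MEFs. The counts by role given here stand against 16.7%, 21.2% and 21.1% of all genes that fell and 17.4%, 22.9% and 22.3% that rose in the same footprint fits, and against 15.5% that rose and 16.6% that fell in Pelo-/- mRNA. In Pelo-/- mRNA 5 of 11 proteases, 2 of 4 lipid hydrolases, 2 of 4 activator, carrier and growth factor proteins, 5 of 9 membrane proteins and 1 of 3 V-ATPase members rose and 0 fell, and the other 2 V-ATPase members had a negative log2 fold change. Ctsd (ENSMUSG00000007891.16, chromosome 7, 142375911 to 142388038, minus strand, Gencode M21 of GRCm38) had 363, 373 and 364 CPM of footprints in Hbs1l-/- cells against 585, 601 and 567 in controls. It had 422, 372 and 342 CPM in Pelo-/- cells against 601, 601 and 564, and 375, 396 and 369 in labelled Upf2-/- cells against 594, 598 and 577. No mutant library reached its controls, and Ctsd fell by 0.67 (SE 0.06, adjusted p = 3.46e-06, edgeR), 0.64 (SE 0.08, 0.000182) and 0.63 (SE 0.06, 1.19e-05) on the log2 scale. Ctsd mRNA was 981 and 930 CPM in Pelo-/- cells against 799, 756 and 764 in controls, groups that did not overlap, and rose by 0.32 (SE 0.09, adjusted p = 0.0285, edgeR).

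Ctsh and Ctsf, papain-like cathepsins of low level in these cells, fell most among the proteases. Ctsh (ENSMUSG00000032359.14, chromosome 9, 90054152 to 90076089, plus strand) had 12.2, 14 and 12 CPM of footprints in labelled Upf2-/- cells against 30.0, 29.6 and 27.0. It had 19.6, 17.4 and 14.3 CPM in Pelo-/- cells against 27.8, 27.8 and 28.8, and 15.4, 13.6 and 21.6 in Hbs1l-/- cells against 27.7, 31.0 and 24.7. The groups were apart in all 3 comparisons, at -1.17 (SE 0.11, adjusted p = 1.5e-05, edgeR), -0.72 (SE 0.12, 0.000846) and -0.70 (SE 0.15, 0.00272). Ctsf had 13.6, 13.9 and 12 CPM in Hbs1l-/- cells against 22.4, 31.9 and 19.0, 13.1, 13.6 and 12.6 in Pelo-/- cells against 24.5, 29.3 and 22.6, and 13.9, 15.2 and 16.1 in labelled Upf2-/- cells against 25.5, 30.2 and 20.7. Its log2 fold changes were -0.91, -0.96 and -0.75, with no overlap between groups.

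Tpp1, a peptidase that removes tripeptides from protein ends, had 215, 198 and 195 CPM of footprints in Pelo-/- cells against 328, 366 and 298 in controls. Its mRNA was 115 and 118 CPM in Pelo-/- cells against 72.7, 84.1 and 73.9. Neither measure overlapped, footprints fell by 0.71 (adjusted p = 0.000103, edgeR), mRNA rose by 0.62 (0.00392) and TE fell by 1.31 (SE 0.13, 1.07e-05). In Hbs1l-/- cells Tpp1 fell in both, by 0.50 in footprints and 0.45 in mRNA.

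Ctsl and Ctsb, the most abundant cysteine cathepsins, differed. Ctsl footprints were 504, 509 and 538 CPM in Hbs1l-/- cells against 750, 843 and 718, and fell by 0.58 there, by 0.48 in Pelo-/- and by 0.73 in labelled Upf2-/- cells. Ctsl mRNA fell by 0.62 in Hbs1l-/- cells (adjusted p = 0.00453, edgeR), and was at -0.06 in Pelo-/- and -0.30 in labelled Upf2-/- cells, values that did not pass the test. Ctsb footprints overlapped their controls in Hbs1l-/- (481, 501 and 506 against 548, 601 and 493 CPM) and Pelo-/- cells (669, 591 and 568 against 554, 593 and 480), and fell by 0.21 in labelled Upf2-/- cells (adjusted p = 0.0353, edgeR). Ctsb mRNA was 425 and 392 CPM in Pelo-/- cells against 240, 245 and 233, well above every control, and rose by 0.79 (SE 0.08, adjusted p = 0.00114, edgeR).

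Ctsk and Ctss went the other way in footprints. Both lie on chromosome 3 on the plus strand, Ctsk (ENSMUSG00000028111.4) from 95499256 to 95509362 and Ctss (ENSMUSG00000038642.10) from 95526786 to 95556403. Ctsk footprints were 53.7, 46.4 and 70.9 CPM in Pelo-/- cells against 25.1, 17.7 and 26.2, 40.5, 40.2 and 35.3 in Hbs1l-/- cells against 24.5, 18.2 and 22.3, and 36.9, 34.3 and 27.3 in labelled Upf2-/- cells against 22.6, 18.5 and 24.2. Every mutant library was above its controls, and Ctsk rose by 1.32 (SE 0.18, adjusted p = 0.00023, edgeR), 0.84 (SE 0.12, 0.00011) and 0.59 (SE 0.13, 0.00376). Ctss footprints were 45.2, 28.6 and 36.8 CPM in Pelo-/- cells against 13.4, 11.9 and 17.0, 23.7, 25.1 and 19.5 in Hbs1l-/- cells against 13.4, 9.75 and 15.8, and 30.3, 28.5 and 23.0 in labelled Upf2-/- cells against 13.5, 12.5 and 20.8. These groups did not overlap either, and Ctss rose by 1.39, 0.81 and 0.80.

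In mRNA, Ctsk was 18.4, 18.1 and 12.6 CPM in Hbs1l-/- cells against 7.05, 8.64 and 12.5 in controls, groups that nearly touched, and rose by 0.78 (SE 0.22, adjusted p = 0.0341, edgeR). It was 8.76 and 7.31 CPM in Pelo-/- cells and 4.73, 6.93 and 7.5 in labelled Upf2-/- cells, within or below the range of the controls. Cd68, a membrane protein of macrophage lysosomes, had footprints of 36.3, 25.4 and 29.3 CPM in Pelo-/- cells against 15.2, 13.5 and 13.3, all above the controls, and rose by 1.12 (SE 0.14, adjusted p = 0.000142, edgeR). In labelled Upf2-/- cells it had 22.5, 19.9 and 14.5 CPM against 14.8, 12.9 and 12.4, groups that overlapped, at 0.50 (0.0223). Ctso had 6.63, 6.87 and 6.61 CPM in Pelo-/- cells against 4.40, 3.74 and 5.17, with no overlap, and rose by 0.60 (0.0155).

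Markers of macrophages moved in the same libraries, though not always with these genes. In Hbs1l-/- cells Cd68 passed the test neither in footprints (0.29) nor in mRNA (0.49). Ctss mRNA was at 0.34 in Hbs1l-/-, -0.12 in Pelo-/- and -0.52 in labelled Upf2-/- cells, values that did not pass. The 12 macrophage and microglia markers, none of them a member, had summed footprints of 253 to 353 CPM in Hbs1l-/- libraries against 144 to 194 in controls, 527 to 746 in Pelo-/- libraries against 140 to 193, and 195 to 235 in labelled Upf2-/- libraries against 139 to 194. In mRNA, 9 of 12 rose in Hbs1l-/- cells, 2 in Pelo-/- and 0 in labelled Upf2-/- cells. None of the 12 was at 0 in all libraries of a comparison, and Csf1r, the receptor that defines this lineage, was at 17.5 to 27.8 CPM of footprints in control libraries. Other markers moved too. Among them were those of astrocytes and Bergmann glia, of which 1 of 3, 6 of 6 and 3 of 4 tested rose, and whose sum was 21.2 to 29.8, 29.5 to 51.3 and 34.4 to 54.8 CPM in the 3 mutants against 11.3 to 14.9 in controls. Endothelial markers summed to 38.5 to 43.4, 25.1 to 32.4 and 53.6 to 60.9 CPM against 69.3 to 86.5. The part of these markers in the values of Ctsk, Ctss and Cd68, or of the other members, was not tested.

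**Figure D4:**
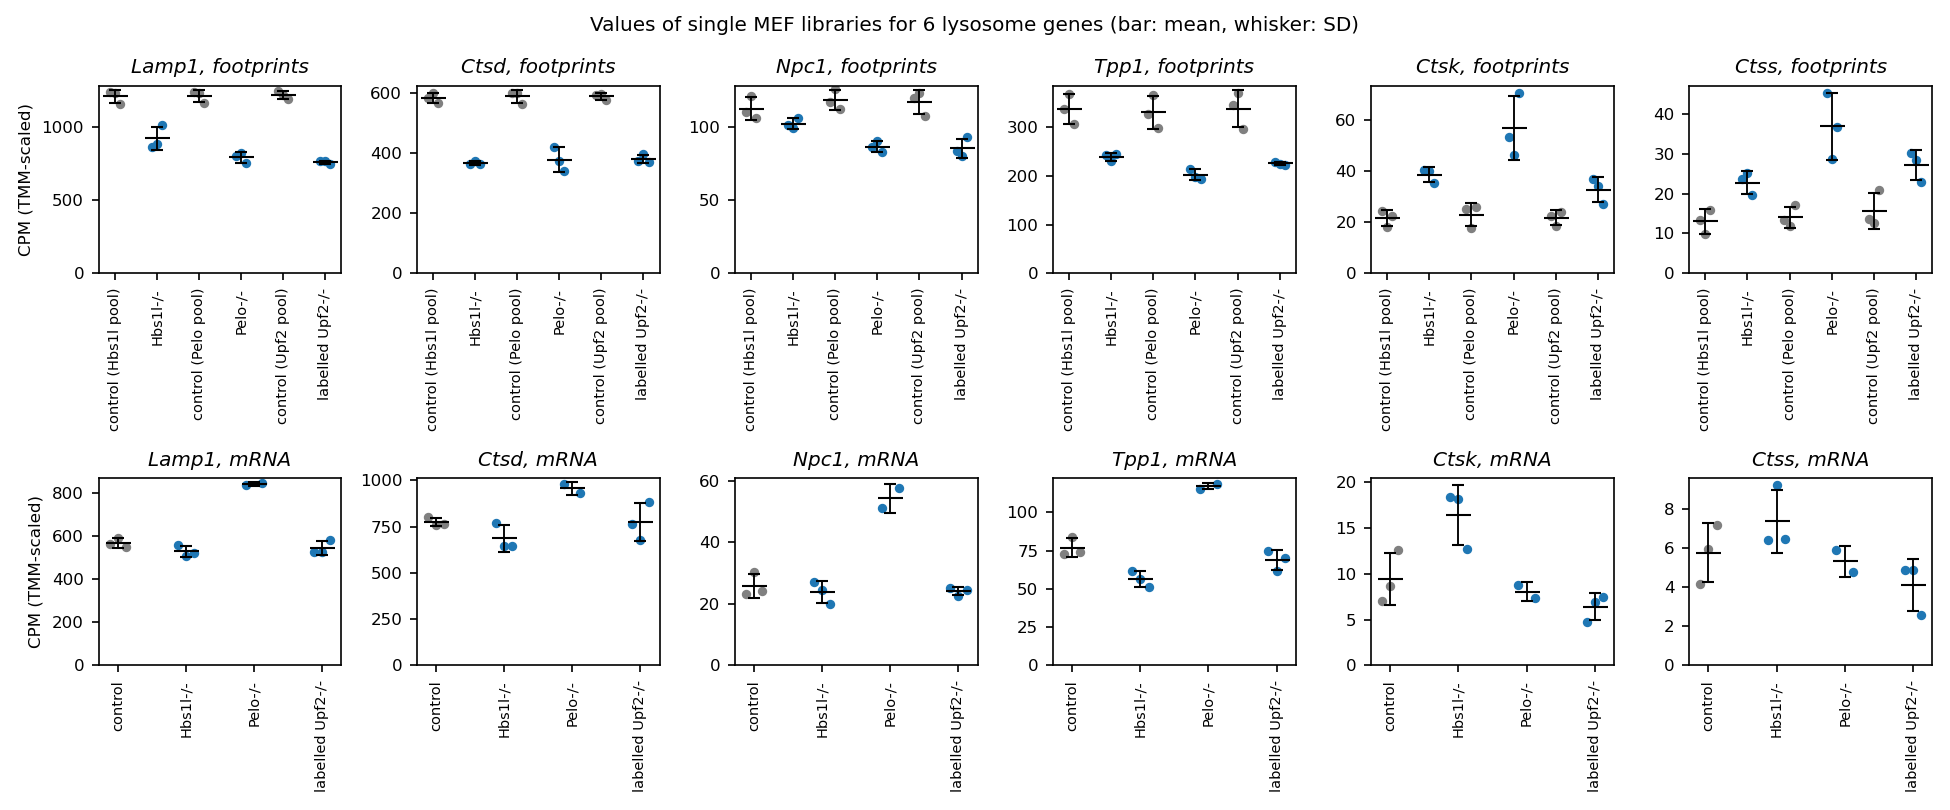
CPM scaled with TMM factors (vertical axis) in each MEF library for 6 lysosome genes, footprints above and mRNA below, with controls in grey, mutants in blue, bars at the mean and whiskers of 1 SD. Lamp1, Ctsd, Npc1 and Tpp1 footprints of Pelo-/- cells lie below their controls while their mRNA lies above, and Ctsk and Ctss footprints lie above their controls in all 3 mutants.

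Of the 12 glycosidases, which cut sugars from glycoproteins, glycolipids and glycosaminoglycans, 7, 7 and 8 fell in footprints in Hbs1l-/-, Pelo-/- and labelled Upf2-/- MEFs and 0 rose. In Pelo-/- mRNA 8 of 12 rose, and all 12 had a positive log2 fold change. Manba, the beta-mannosidase, had 12.9, 13.7 and 10.2 CPM of footprints in labelled Upf2-/- cells against 19.9, 25.3 and 21.3, with no overlap, and fell by 0.85 (SE 0.14, adjusted p = 0.000621, edgeR). Gaa mRNA was 150 and 158 CPM in Pelo-/- cells against 85.5, 91.5 and 90.8, far above every control, and rose by 0.80 (SE 0.08, 0.00103). Gaa footprints in Pelo-/- cells were 229, 228 and 214 CPM against 270, 313 and 258, below every control, and fell by 0.33 (SE 0.08, 0.00752). Hexa, a beta-hexosaminidase subunit, fell in footprints by 0.59, 0.49 and 0.54 in the 3 mutants, and rose in Pelo-/- mRNA by 0.48 (0.00423).

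Naglu, the N-acetylglucosaminidase of heparan sulfate, was an exception in labelled Upf2-/- cells. Its mRNA was 19.1, 17.1 and 28.9 CPM there against 13.1, 12.2 and 10.4, above every control, and rose by 0.86 (SE 0.20, adjusted p = 0.0139, edgeR). Its footprints were 28.4, 27.2 and 29.2 CPM against 31.3, 33.9 and 26.2, which overlapped, and its TE fell by 0.99 (SE 0.25, 0.0113). Gla, the alpha-galactosidase, was the only member that passed the test in none of the 11 main comparisons.

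The sulfatases and Hgsnat, an acetyltransferase, take part in the breakdown of sulfated glycans, and 5 of the 6 rose in Pelo-/- mRNA. In footprints 1, 2 and 3 of the 6 fell and 1, 1 and 0 rose in the 3 mutants, which in Hbs1l-/- cells is about the share of all genes in both directions. Arsb, the sulfatase of dermatan sulfate (chromosome 13, 93771630 to 93943016, plus strand), had 38.3, 40.4 and 40.5 CPM of footprints in Pelo-/- cells against 25.4, 28.3 and 26.8. Its mRNA was 21.4 and 20.6 CPM against 9.92, 13.2 and 12.8. Both were above every control, and Arsb rose by 0.57 in footprints (SE 0.08, adjusted p = 0.000338, edgeR) and by 0.82 in mRNA (SE 0.14, 0.00684). In labelled Upf2-/- cells Arsb mRNA was 8.90, 8.20 and 8.82 CPM, below every control, and fell by 0.49 (0.0403). Galns mRNA, for a sulfatase of keratan sulfate, was 18.4 CPM in both Pelo-/- libraries against 10.6, 10.9 and 10.5 and rose by 0.80 (0.00215), and it rose by 0.55 in labelled Upf2-/- cells (0.0239). Galns footprints did not pass the test in any of the 3 mutants.

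Of the 4 lipid hydrolases, Asah1, the acid ceramidase (ENSMUSG00000031591.14, chromosome 8, 41340197 to 41374773, minus strand), fell most. It had 221, 207 and 181 CPM of footprints in Pelo-/- cells against 395, 411 and 401 in controls, 282, 282 and 314 in Hbs1l-/- cells against 403, 414 and 400, and 238, 262 and 256 in labelled Upf2-/- cells against 399, 410 and 401. All 9 mutant libraries were below their controls, and Asah1 fell by 0.99 (SE 0.08, adjusted p = 8.77e-06, edgeR), 0.47 (SE 0.06, 9.38e-05) and 0.68 (SE 0.06, 1.06e-05). Its mRNA was 71.7, 94.1 and 90.4 CPM in Hbs1l-/- cells, 116 and 97.7 in Pelo-/- cells and 106, 91.2 and 85.5 in labelled Upf2-/- cells, against 127, 149 and 128 in controls. All these libraries were below the controls, and Asah1 mRNA fell by 0.66 in Hbs1l-/- cells (0.00566) and by 0.53 in labelled Upf2-/- cells (0.0111), while Pelo-/- cells did not pass the test. Smpd1, the acid sphingomyelinase, fell in footprints by 0.42, 0.48 and 0.56 and rose in Pelo-/- mRNA by 0.29 (0.0214).

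Of the 4 activator, carrier and growth factor proteins, Gm2a, which lifts the ganglioside GM2 out of membranes for its hydrolase, had 13.5, 14.2 and 14.2 CPM of footprints in labelled Upf2-/- cells against 24.3, 27.6 and 22.7. It had 14, 13.2 and 14.9 CPM in Hbs1l-/- cells against 22.5, 26.4 and 21.2. Both were below every control, at -0.83 (SE 0.11, adjusted p = 0.000158, edgeR) and -0.73 (SE 0.12, 0.000488). Gm2a mRNA was 10.7, 10.8 and 12.1 CPM in labelled Upf2-/- cells against 18.3, 16.7 and 16.2, also below every control, and fell by 0.62 (0.0085). Psap had 860, 832 and 838 CPM of footprints in Hbs1l-/- cells against 1013, 1113 and 908, and fell by 0.26 there and by 0.30 in labelled Upf2-/- cells. In Pelo-/- cells Psap footprints were at -0.21 (adjusted p = 0.0675, edgeR) and its mRNA, 508 and 492 CPM against 343, 348 and 333, rose by 0.56 (0.00297).

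Of the 9 membrane proteins, 5, 5 and 6 fell in footprints and 0, 1 and 1 rose. Lamp1 (ENSMUSG00000031447.7, chromosome 8, 13159161 to 13175338, plus strand) had 799, 825 and 752 CPM of footprints in Pelo-/- cells against 1239, 1236 and 1163. It had 865, 887 and 1014 CPM in Hbs1l-/- cells against 1242, 1230 and 1160, and 766, 765 and 749 in labelled Upf2-/- cells against 1244, 1222 and 1189. All were below their controls, and Lamp1 fell by 0.61 (SE 0.07, adjusted p = 5.86e-05, edgeR), 0.39 (SE 0.07, 0.000671) and 0.68 (SE 0.06, 6.41e-06). Lamp1 mRNA was 836 and 849 CPM in Pelo-/- cells against 564, 592 and 548, above every control. It was 560, 510 and 522 in Hbs1l-/- cells and 526, 527 and 582 in labelled Upf2-/- cells, which overlapped the controls. The Pelo-/- rise was 0.58 (SE 0.09, 0.00404), and the fall in TE there was 1.18 (SE 0.11, 5.54e-06).

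Npc1, which moves cholesterol out of the lysosome, had the largest rise in mRNA and the largest fall in TE among the members in Pelo-/- cells. Its mRNA was 51.0 and 57.5 CPM there against 23.1, 30.2 and 24.2, and its footprints were 85.9, 90.4 and 82.7 CPM against 117, 125 and 112. Neither measure overlapped, mRNA rose by 1.08 (SE 0.14, adjusted p = 0.0024, edgeR), footprints fell by 0.45 (SE 0.07, 0.000541) and TE fell by 1.52 (SE 0.15, 8.31e-06). Mcoln1 fell by 0.31, 0.49 and 0.40 in footprints of the 3 mutants and rose by 0.53 in Pelo-/- mRNA (0.00807).

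Lamp2, the close relative of Lamp1 in the lysosomal membrane, had 580, 524 and 532 CPM of footprints in Pelo-/- cells against 678, 686 and 722, 557, 559 and 611 in Hbs1l-/- cells against 655, 672 and 704, and 527, 538 and 485 in labelled Upf2-/- cells against 682, 671 and 716. All were below their controls, at -0.35, -0.23 and -0.42. Its mRNA was 56.2, 90.7 and 79.2 CPM in Hbs1l-/- cells against 110, 126 and 105, again below every control, and fell by 0.59 (SE 0.16, adjusted p = 0.0265, edgeR). Lamp2, Ids, Atp6ap1 and Gla are X-linked, and the MEF groups differed in Y-linked genes, which exceeded 10 CPM of mRNA in 0 of 3 Hbs1l-/-, 1 of 2 Pelo-/-, 2 of 3 labelled Upf2-/- and 1 of 3 control libraries. The part of this difference in their values was not tested.

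All 3 V-ATPase members, Atp6v0d1 of the membrane sector, Atp6v1h of the catalytic sector and the accessory subunit Atp6ap1, fell in footprints in all 3 mutants. Atp6v0d1 had 171, 168 and 162 CPM in Pelo-/- cells against 297, 291 and 277, 186, 201 and 205 in Hbs1l-/- cells against 281, 306 and 277, and 201, 207 and 213 in labelled Upf2-/- cells against 291, 301 and 274. There was no overlap, and it fell by 0.79 (SE 0.06, adjusted p = 7.17e-06, edgeR), 0.54 (SE 0.07, 4.83e-05) and 0.48 (SE 0.06, 0.000101). Its mRNA fell by 0.47 in Hbs1l-/- cells (0.013). Atp6ap1 mRNA was 226 and 225 CPM in Pelo-/- cells against 148, 153 and 150, above every control, and rose by 0.60 (0.00218).

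The mutants were then compared with each other by testing the difference of their effects. In mRNA, the effect of Pelo-/- was higher than that of Hbs1l-/- for 31 members and lower for Ctsk and Ctso, where 18.4% of 15251 genes were higher and 16.8% lower. The median difference was 0.47, led by Manba (1.25, SE 0.16, adjusted p = 0.000664, edgeR), Npc1 (1.24) and Tpp1 (1.10). The number of calls rests on 2 Pelo-/- RNA libraries. With either of them left out, in fits that keep a lone Pelo-/- library, fewer members were called, and fewer of all genes too. The effect in labelled Upf2-/- cells was lower than in Pelo-/- cells for 23 members and higher for 0, where 12.4% of 15791 genes were lower and 19.6% higher. This median difference was -0.38, led by Arsb (-1.28, SE 0.14, 0.000164), Npc1 (-1.17) and Manba (-1.02).

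In footprints the members differed between mutants about as often as all genes did, higher and lower counted together, so the calls are given as values of single genes and not as a result about the members. Between Pelo-/- and Hbs1l-/- cells, Cd68 (0.83, adjusted p = 0.0185, edgeR), Ctsz, a carboxypeptidase (0.52, 0.0112), and Npc2, the soluble cholesterol carrier (0.40, 0.0359), were higher and Asah1 was lower (-0.51, 0.00822), where 3.45% of 12526 genes were higher and 2.1% lower. This count was 2 without Hbs1l-/- replicate 3 (416 of 12801 genes called) or without control replicate 1 of the Hbs1l pool (384 of 12808). In labelled Upf2-/- against Pelo-/- cells, Ctso, Arsb, Ctsz, Gusb, Glb1 and Npc2 were lower, between -0.91 and -0.38, and Atp6v0d1 was higher (0.31, 0.0186), where 6.82% of 12675 genes were lower and 6.18% higher. The 7 calls became 3 without control replicate 1 of the Pelo pool (1187 of 12973 genes called). They became 4 without labelled Upf2-/- replicate 2 (1248 of 12955) or 3 (1328 of 12963), and without control replicate 1 of the Upf2 pool (1097 of 12855). These tests take the 3 control pools as separate cells, which the chi-square values above do not bear out.

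In Hbs1l-/- embryos Ctsd alone passed the test by edgeR. DESeq2 called 6 members, all higher (222 higher of 16310 genes fitted), the fit with a replicate block 5, all higher (240 of 11416), and the fit without a filter on low counts 7, all higher (351 of 16310). Of 47 members tested 1 rose and 0 fell, where 0.92% of 11416 genes rose and 0.955% fell, 15 members (2121 of all genes) had an unadjusted p below 0.05 by edgeR, and 38 of 47 had a positive log2 fold change (50.9% of all genes). The median of the members was 0.28, against 0.01 for all genes. Ctsd had 146, 221 and 233 CPM in Hbs1l-/- embryos against 119, 110 and 119 in wild-type embryos. The groups did not overlap, and Ctsd rose by 0.78 (SE 0.18, adjusted p = 0.0417, edgeR). In fits without Hbs1l-/- replicate 3, or without any 1 of the 3 wild-type replicates, 0 of 47 members passed. Of all genes, 107 of 11883 passed without Hbs1l-/- replicate 3. Without wild-type replicates 1, 2 and 3, 45 of 11940, 28 of 11320 and 46 of 11950 genes passed. By contrast, 10 members passed without Hbs1l-/- replicate 1, the mutant library with the lowest median. All 10 were higher, and in that fit 2309 of 11376 genes passed, 1098 of them higher.

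Other abundant members were higher in most mutant embryo libraries without passing the test. Lamp1 had 654, 857 and 956 CPM against 667, 555 and 590, Lamp2 218, 343 and 364 against 193, 195 and 228, and Ctsl 1701, 2664 and 2318 against 1609, 1223 and 1597. Lamp1 and Lamp2 overlapped in replicate 1 and Ctsl did not, at 0.44, 0.58 and 0.59 (adjusted p = 0.166, 0.114 and 0.109, edgeR). Npc1, named after its values were seen, had 239, 355 and 350 CPM against 209, 197 and 181, with no overlap, at 0.68 (0.0507). Ctsb and Psap were both at 0.28 (0.331 and 0.362). The members' share of footprints was 0.965% ± 0.103 in Hbs1l-/- embryos (n = 3).

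Trophoblast markers differed between the same embryo libraries. Of 8 trophoblast markers 5 were tested and 4 rose, with a median of 4.57, and the list summed to 275 to 1284 CPM in Hbs1l-/- libraries against 133 to 178 in wild-type libraries. Erythroid markers summed to 3164 to 8645 CPM against 12986 to 16960, and 2 of 5 tested fell. Endothelial markers summed to 515 to 682 CPM against 421 to 446, with no overlap, and of 5 tested Pecam1 alone passed, at 1.27 (adjusted p = 0.00327, edgeR). Of 10 fibroblast markers 2 fell, Col3a1 and Col1a1, as did 1 of 5 decidua markers, Des, while the sums of both lists overlapped. The granule neuron list summed to 49.5 to 80.6 CPM against 81.8 to 88.1 and the oligodendrocyte list to 16.3 to 20.9 against 23.6 to 31.1, without overlap, and by edgeR 0 of 3 tested on each passed and 2 of 3 had an unadjusted p below 0.05. Y-linked genes summed to 206, 190.5 and 219 CPM in Hbs1l-/- libraries against 22.0, 36.1 and 122 in wild-type libraries, with no overlap, and Lamp2 is X-linked. The part of these differences in the members' values was not tested. Across all genes, the change in embryos was related to GC content (Spearman's rho -0.39 over 11268 genes), and set against genes of like length and GC content the members' median was 0.22.

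In Hbs1l cKO cerebella 0 of 49 members passed the test, where 0.0554% of 14430 genes rose and 0.00693% fell, and 3 members (1936 of all genes) had an unadjusted p below 0.05 by edgeR, and DESeq2 called 0 (476 of 17707 genes fitted). The median was -0.04 against 0.00 for all genes (-0.08 against genes of like length and GC content), and 2 members, both higher, passed without control replicate 3, where 560 of 14597 genes passed, 245 of them higher. Psap had 2563, 2911 and 2543 CPM against 3353, 3224 and 3248, values that did not overlap, at -0.29 (SE 0.13, adjusted p = 0.393, edgeR). Ctsd had 194, 191 and 234 CPM against 183, 162 and 225, which overlapped, at 0.12 (0.785). Lamp1, Lamp2, Ctsb and Ctsl were at -0.10, -0.04, -0.21 and -0.02. Markers of astrocytes and Bergmann glia summed to 5636 to 6982 CPM in cKO libraries against 7531 to 8853 in controls, those of oligodendrocytes to 7884 to 10092 against 10519 to 12043, and those of Purkinje cells to 4600 to 6137 against 6379 to 12309, with no overlap. The granule neuron list summed to 3245 to 4024 CPM against 3492 to 5241, which overlapped. By edgeR 0 of the 25 markers on these 4 lists passed the test. Of these markers 12 had an unadjusted p below 0.05, among them all 5 of Purkinje cells. The decidua list summed to 136 to 140 CPM against 91.7 to 129, higher without overlap, and 0 of 2 tested passed. Further V-ATPase subunits summed to 3482 to 3518 CPM against 3903 to 4467. A list of MiT/TFE factors, such as TFEB, and their regulators summed to 309 to 326 CPM against 355 to 365. Both were lower without overlap, and 0 of 13 and 0 of 9 tested passed. The part of these lists in the Psap values was not tested. The difference between the effect in embryos and that in cerebella had a median of 0.32 over the 49 members that passed the filter, of which 0 passed the test (0.267% of 14624 genes higher and 0.465% lower), 16 had an unadjusted p below 0.05 by edgeR (2298 of all genes), and DESeq2 called 3, all higher in embryos (258 higher of 18189 genes fitted). Without Hbs1l-/- embryo replicate 1 this test called 7 members, all higher in embryos, and 1123 of 15027 genes, 472 of them higher. Ctsk and Ctss, which had too few footprints in embryos to be tested there, passed the filter of this joint fit through the cerebellum, at 0.99 (SE 1.40) and 0.21 (SE 0.75).

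Transcripts were examined in labelled Upf2-/- cells, since nonsense-mediated decay acts on single transcripts. Of 134 transcripts of members that passed the filter, 1 rose and 3 fell, where 4.71% of 40620 transcripts rose and 0.926% fell. DESeq2 called 21 of them, 7 higher and 14 lower, among 5461 of 99371 transcripts fitted, 3439 of which were higher. Ctsa-206, a transcript of the serine carboxypeptidase gene with a retained intron, was at 5.36, 4.11 and 7.26 CPM against 0.709, 0.720 and 1.51, above every control, and rose by 2.47 (SE 0.41, adjusted p = 0.0233, edgeR). The coding transcripts Asah1-201, Gm2a-201 and Ids-201 fell by 0.60, 0.66 and 0.58. Of 10 member transcripts annotated for nonsense-mediated decay 0 passed the test with edgeR, where 15.2% of all 2945 such transcripts rose. By edgeR 3 had an unadjusted p below 0.05, of which Ppt1-203 (3.22) and Atp6ap1-205 (2.49) had a positive log2 fold change and Asah1-202, with the smallest p, a negative one (-0.59). Over all such transcripts 1095 had an unadjusted p below 0.05 with a positive change and 52 with a negative one. The change was positive for 8 of the 10 and for 2351 of the 2945. The 4 calls moved with single libraries, to 0 without any 1 of the 3 labelled Upf2-/- replicates or control replicate 2. They became 1 without control replicate 1 and 2 without control replicate 3. Calls over all transcripts fell too, to 709 of 46188, 567 of 40038 and 694 of 40224 without labelled Upf2-/- replicates 1, 2 and 3. They were 1156 of 46626, 668 of 46318 and 1277 of 40735 without control replicates 1, 2 and 3.

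Other genes of the pathway, on lists that hold no member, were counted in the same fits. The shares of all genes beside them are, in the order Hbs1l-/-, Pelo-/- and labelled Upf2-/-, 16.7%, 21.2% and 21.1% lower and 17.4%, 22.9% and 22.3% higher in footprints, and 10.4%, 16.6% and 6.76% lower and 12.7%, 15.5% and 13.2% higher in mRNA. Of 13 further V-ATPase subunits 8, 9 and 10 fell in footprints in Hbs1l-/-, Pelo-/- and labelled Upf2-/- MEFs and 0 rose, with Atp6v0a1 at -0.64, -1.16 and -0.65. In mRNA 8, 1 and 1 fell and 0, 2 and 0 rose. Of 16 further hydrolases 7, 6 and 7 fell in footprints and 1, 2 and 3 rose. Their mRNA rose for 3, 13 and 3 of 16 and fell for 2, 0 and 0, so that the count in Pelo-/- cells alone stood far above the share of all genes.

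Sorting factors carry the hydrolases to the lysosome. Of 11, 2, 7 and 2 rose and 2, 0 and 1 fell in mRNA, and Igf2r, the larger mannose 6-phosphate receptor, rose by 1.14 in Pelo-/- mRNA while its footprints fell by 0.57. In footprints 3, 2 and 3 of 11 fell and 0, 0 and 1 rose, counts that are no result about this list beside the shares of all genes. Of 14 further membrane proteins 8, 8 and 6 fell in footprints and 2, 2 and 4 rose, and in mRNA 2, 4 and 2 rose and 2, 0 and 1 fell. Autophagy genes fell in footprints for 6 of 16, 9 of 17 and 5 of 17 tested, and none rose. In mRNA 0, 3 and 1 of 17 rose and 5, 4 and 0 fell.

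Of the factors that control the program, the list of MiT/TFE proteins and their regulators had 9 of 10 genes tested, of which 1, 2 and 2 rose and 1, 3 and 0 fell in footprints and 1, 2 and 1 rose and 1, 1 and 0 fell in mRNA. Beside the shares of all genes given above, counts of this size over 9 genes are no result about the list, and the values of single genes are given as a description. Mitf footprints rose by 0.96 in Hbs1l-/- and by 1.54 in Pelo-/- cells, and Tfe3 footprints rose by 0.44 in Pelo-/- cells. Fnip2 and Tfeb footprints rose by 0.40 and 0.46 in labelled Upf2-/- cells. Rragc footprints fell by 0.36 in Hbs1l-/- and by 0.42 in Pelo-/- cells, where those of Rragd fell by 1.19 and those of Fnip1 by 0.31. Tfeb, the best known of these factors, was at 8.95, 6.82 and 8.03 CPM in Hbs1l-/- cells against 5.31, 4.64 and 4.94 in controls, with no overlap, and its mRNA rose by 0.67 (adjusted p = 0.0140, edgeR). Flcn, which encodes folliculin, and Fnip2, its partner in nutrient sensing, rose by 0.44 and 0.71 in Pelo-/- mRNA, and Tfe3 rose by 0.35 in labelled Upf2-/- mRNA. Rragd, which like Rragc encodes a Rag GTPase, fell by 0.72 in Hbs1l-/- mRNA and Fnip1, another partner of folliculin, by 0.82 in Pelo-/- mRNA. Among members with CACGTG in the promoter 10 of 14 rose in Pelo-/- mRNA, with a median of 0.39, and among members whose promoter lacked it 14 of 28 rose, with a median of 0.32. Over all genes with a promoter, 19.5% of 1233 with CACGTG rose in the same fit and 15.7% of 9528 without it. In footprints 9 of the 14 fell in Pelo-/- cells, with a median of -0.42, and 13 of the 28, with a median of -0.19, where 24.3% of 1164 genes with CACGTG fell and 20.7% of 8712 without it. These counts are a description, with no test between them.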

How the data were processed

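Ribosome footprints were sequenced from embryos, cerebella and MEFs, and RNA from MEFs. The authors clipped adapters, filtered ribosomal, small nucleolar and transfer RNA with Bowtie2 2.2.3 and aligned footprints to mm10 with HISAT2 2.1.0. The deposited footprint values are raw counts per gene over coding sequence from featureCounts. The RNA files deposited by the authors give, per transcript and from kallisto 0.42.4, an estimated count and a TPM value that cover the whole transcript. Footprints on untranslated parts are therefore not counted, whereas their RNA is. The transcripts of a gene were added up and the sum was rounded to a whole number. Levels per length are TPM or CPM per kilobase of coding sequence.

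Comparisons used edgeR 4.0.16 (R 4.3.3) with TMM factors, its filter on low counts, the quasi-likelihood test and Benjamini-Hochberg adjustment over all genes at 0.05. Histone genes were left out of footprints and TE. TE was the interaction of assay and genotype, with the kallisto counts as RNA. Alternatives used DESeq2 1.42.0 and limma 3.58.1, other factors and filters, a replicate block, merged controls and each replicate left out. The edgeR test was tried on simulated data for some of the comparisons, but not for mutant against mutant in mRNA. The alternatives, the chi-square values, the length and GC comparison and the joint mRNA and footprint count were not tried in this way.

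Named are the targeted genes, Lamp1, Lamp2, Ctsb, Ctsd, Ctsl and Psap in every comparison, and called members with the largest changes. Called members were described per library where the groups did not overlap and the mean was at least 5 CPM. Also named are members with opposite mRNA and footprints, members called nowhere, called non-coding transcripts and up to 3 genes of each other list. The members and lists were chosen with earlier results of these data known. MEFs came from individual embryos, embryo libraries from pools, and p-values measure the spread between these libraries.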

Additional observations from a re-analysis of the deposited data

Results flagged for a closer look

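In MEFs, 4 tests of a difference between mutants called members, and each is listed because the difference itself was tested. Between Pelo-/- and Hbs1l-/- cells the test called 4 members in footprints, 3 higher and 1 lower, where 3.45% of all genes were higher and 2.1% lower, and 33 in mRNA, 31 higher and 2 lower, where 18.4% were higher and 16.8% lower. Between cells labelled Upf2-/- and Pelo-/- cells it called 7 members in footprints, 1 higher and 6 lower, where 6.18% of all genes were higher and 6.82% lower, and 23 in mRNA, all lower, where 19.6% were higher and 12.4% lower. The footprint counts are about the share of all genes called, higher and lower counted together, and are no result about the members. The mRNA tests rest on 2 Pelo-/- libraries, and the footprint tests on 3 control pools whose same-numbered libraries differ by little more than sampling noise.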

How the results depend on the processing

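In MEF footprints the number of members called stayed within 1.5 times the reported number under every alternative run. When single replicates were left out, 23 to 34 were called in Hbs1l-/-, 28 to 32 in Pelo-/- and 33 to 38 in labelled Upf2-/- cells. Of all genes, 2913 of 12115 to 4078 of 12175 were called in Hbs1l-/- cells in these fits. The calls ran from 4269 of 12848 to 5217 of 12542 in Pelo-/- and from 4174 of 12190 to 5136 of 12170 in labelled Upf2-/- cells. TE calls ranged from 33 to 36 in Pelo-/-, from 12 to 24 in labelled Upf2-/- and stayed at 0 in Hbs1l-/- cells. In mRNA the same fits gave 3 to 8 calls in Hbs1l-/-, 10 to 31 in Pelo-/- and 1 to 8 in labelled Upf2-/- cells. They gave 0 to 10 in embryos, 0 to 2 in cerebella, 0 to 7 for embryo against cerebellum and 0 to 2 transcripts. Between mutants they gave 2 to 4 (Pelo-/- against Hbs1l-/-) and 3 to 10 (labelled Upf2-/- against Pelo-/-) in footprints, and 17 to 34 and 17 to 27 in mRNA.

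DESeq2 called 6 members in embryos, 2 in Hbs1l-/- TE, 3 for embryo against cerebellum and 21 transcripts (7 higher and 14 lower). Without a filter on low counts 7 members were called in embryos and 1 transcript, where 1493 of 99371 transcripts were called. limma on log2(TPM + 1) called 3, 16 and 2 members in mRNA of Hbs1l-/-, Pelo-/- and labelled Upf2-/- cells. Of all genes it called 1571 of 12462, 1835 of 12496 and 1383 of 12501. Same-numbered libraries had correlations between -0.234 and 0.284, no comparison had all above 0.1, and the numbers were not taken to pair the samples. With the replicate block 5 members were called in embryos and 16 in Pelo-/- mRNA, and other counts stayed within 1.5 times. Members with mRNA higher and footprints lower in Pelo-/- cells numbered 4 to 15 with replicates left out, 8 with limma and 8 with the replicate block. In labelled Upf2-/- cells Hexa made this count 1 without a filter and 0 to 1 with replicates left out, and in Hbs1l-/- cells it stayed at 0. The causes were not tested.

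Some values that passed no test changed sign. In mRNA, Psap in Hbs1l-/- cells was -0.0099 among genes of at least 5 CPM, -0.0022 with the replicate block and -0.14 to 0.086 with replicates left out. In Pelo-/- mRNA limma gave 0.00045 for Lamp2 and 0.038 for Ctsl, which ranged from -0.14 to 0.015 with replicates left out. In labelled Upf2-/- mRNA Ctsd was 0.035 without a filter, 0.00084 among genes of at least 5 CPM, 0.0034 with all 11 RNA libraries and -0.10 to 0.092 with replicates left out, and Psap -0.13 to 0.029. In cerebella Lamp1 ranged from -0.20 to 0.12, Lamp2 from -0.11 to 0.040 and Ctsl from -0.088 to 0.082. Ctsl TE in Hbs1l-/- cells ranged from -0.013 to 0.14. Of 2822 alternative values for named genes, 2565 kept direction and call, 217 lost the call, 18 gained it and 22 changed sign. The comparison with genes of like length and GC content and the alternatives for the joint mRNA and footprint count were chosen after seeing the data.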
